A study of Mus musculus with 4 samples.

Results

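CX3CR1+CD74+ and CX3CR1+ACE+ macrophages of the mouse periosteum, both treated with periostin, were compared by RNA sequencing of total RNA. The comparison rests on 2 of the 4 libraries in the series, 1 library of each subset, and the other 2 are the vehicle-treated libraries of the same subsets. Cells were sorted with antibodies to CD45, CX3CR1 and ACE or CD74 from the periosteum of wild type male C57BL/6 mice at postnatal day 28. They were cultured with 10 ng/ml M-CSF and received periostin at 500 ng/ml, or PBS as vehicle, for 24 h. By their labels, all 4 groups share the strain, sex, age and M-CSF. The labels name neither the number of animals behind a library nor whether cells of one subset were also gated against the marker of the other. Genes were taken from the authors' tables of each subset and matched by gene identifier: 14398 genes were listed for both subsets, of 17532 listed for either. The comparison covered the 13681 of these with at least 1 CPM in the higher of both treated libraries.

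The periosteum is the membrane that covers bone, and it holds resident macrophages beside skeletal progenitors, fibroblasts and vessels. CX3CR1 is the receptor for the chemokine fractalkine and is carried by many tissue macrophages and monocytes. CD74 is the invariant chain that guides MHC class II molecules to the compartments where peptides are loaded, and ACE is the peptidase that makes angiotensin II. Periostin is a secreted matrix protein of periosteum and other collagen-rich tissues that binds integrins. Macrophage subsets are commonly told apart by their receptors for debris and lipid, their antigen presentation and their secreted cytokines and proteases, and those gene groups are taken in turn here.

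Where 2 levels are given for 1 subset, the first is with vehicle and the second with periostin; otherwise the first is ACE+ and the second CD74+, under periostin unless vehicle is named. Levels are the authors' scaled counts expressed per 1000000 (CPM), with all 4 libraries on 1 scale. A log2 difference is that of the CD74+ periostin library minus the ACE+ periostin library after adding 1 CPM to both, and a fold is the plain ratio of the levels. Counts of genes at least 2-fold higher or lower are made on that log2 scale, where a low gene needs a plain ratio somewhat above 2. A range in parentheses after a fold is its exact 95% interval, which covers counting error only. Some folds are given without their interval. With 1 library per group there was no replicate, so no p-value belongs to this comparison, and differences between subsets, sorts, cultures and libraries cannot be told apart. Of each gene list, the members with the most extreme differences were named by rule, and any other member was chosen after its values had been seen.

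The 2 libraries differed in depth, taken here as the recovered reads summed over the genes listed for each subset. Reads outside those genes are not counted. Depth was 19798150 reads for ACE+ periostin and 11846312 for CD74+ periostin, with a median of 501 and 251 reads per compared gene. The vehicle libraries held 15471245 reads (ACE+) and 16650349 reads (CD74+). Genes listed for either subset but with 0 reads numbered 199, 191 and 990 in ACE+ vehicle, ACE+ periostin and CD74+ vehicle, against 2522 in CD74+ periostin. Where no read was seen, the floor of 3 reads is 0.147 CPM for ACE+ periostin and 0.269 CPM for CD74+ periostin. The CD74+ periostin library therefore stood apart from the other 3 in its depth and its share of unseen genes, and every result here uses it.

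The sort markers were checked first. Ptprc, the gene of CD45, stood at 560 CPM in the ACE+ and 363 CPM in the CD74+ library under periostin, and at 618 and 458 CPM with vehicle. Cx3cr1 was detected in all 4 libraries, at 14.5 to 21.7 CPM. Cd74 had 552 CPM in the ACE+ periostin library and 1222 CPM in the CD74+ periostin library, 2.21-fold higher (2.16 to 2.27). Ace went against its label: it stood at 2.80 CPM in the ACE+ periostin library and 9.51 CPM in the CD74+ periostin library, 3.40-fold higher in the latter (2.44 to 4.78). With vehicle, Ace had 2.76 CPM in ACE+ cells and 0.897 CPM in CD74+ cells. Surface ACE protein, on which the sort was made, was not measured in these files, so the subset names below are those of the labels.

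A second check concerned the labelled sex. Xist, the RNA that silences 1 X chromosome in female cells, was near the detection limit in ACE+ cells, at 0.251 CPM with vehicle and 0.687 CPM with periostin. In CD74+ cells it had 117 and 82.1 CPM, 119.5-fold higher than in ACE+ cells under periostin (70.9 to 219); 12.6% of its exon bases lie over another gene. All 4 Y-linked genes looked at (Ddx3y, Eif2s3y, Kdm5d and Uty, chosen after the levels were seen) were detected in every library, and their summed level was 165 CPM in ACE+ and 93.0 CPM in CD74+ cells under periostin. With vehicle these sums were 198 and 129 CPM. The CD74+ libraries thus held Xist RNA together with Y-linked RNA although the label gives male mice, and its part in the differences below was not tested.

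Under periostin, 950 genes (6.94%) were at least 2-fold higher and 1424 genes (10.4%) at least 2-fold lower in CD74+ than in ACE+ cells. Each count of list members below is to be read against these shares. The median log2 difference over all 13681 genes was 0.0026 and its SD across genes was 0.80, with 5% of genes below −1.44 and 5% above 1.14. As a reference, the vehicle libraries gave 488 genes higher (3.64%) and 1035 lower (7.73%) of 13393, and 211 of the 950 higher genes (22.2%) and 528 of the 1424 lower genes (37.1%) were past 2-fold the same way there. The log2 differences with periostin and with vehicle, which share no library, had a Spearman correlation of 0.48 and a Pearson correlation of 0.54 across genes; genes are not independent replicates.

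**Figure D1:**
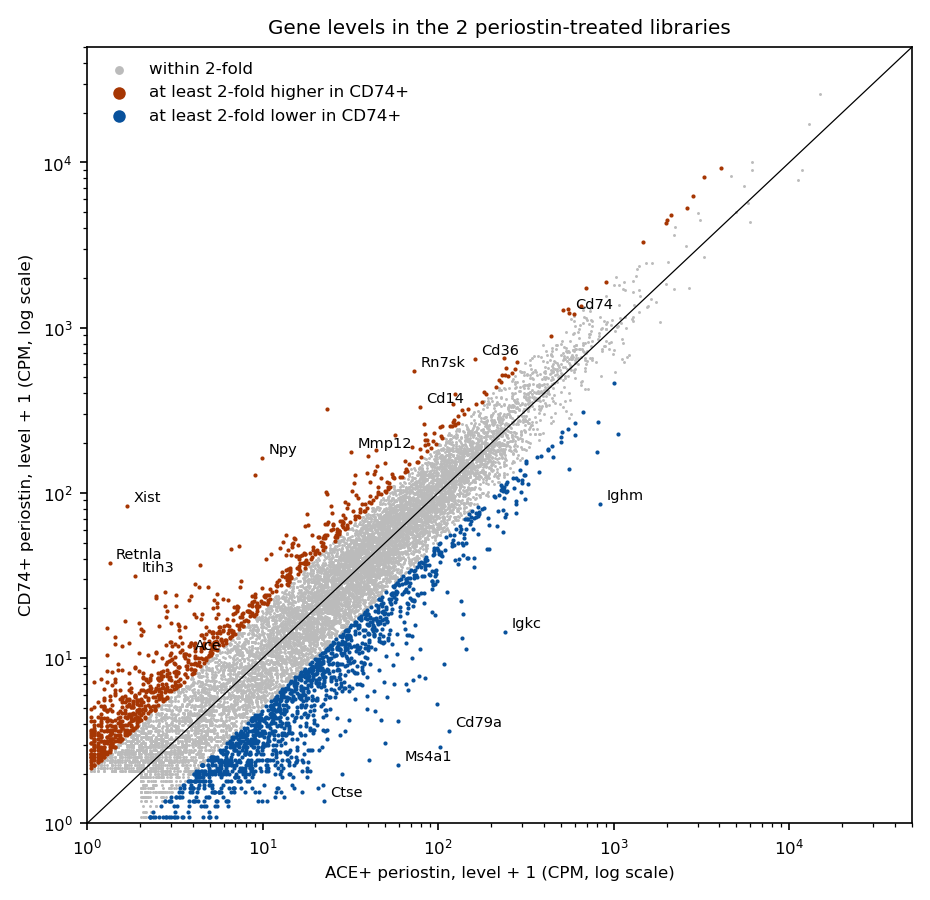
Level of each of the 13681 compared genes in the ACE+ periostin library (x axis) and the CD74+ periostin library (y axis), as CPM plus 1 on log scales, with the line of equal levels. Xist, Retnla, Itih3 and Npy lie far above the line, and Cd79a, Ms4a1 and Ctse far below it.

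Differences under periostin moved with transcript length. Median log2 differences went from 0.37 in decile 1 of summed exon length (the shortest genes, 53 to 1058 bases) to −0.26 in decile 10 (8326 to 116825 bases). In decile 1, 264 genes were at least 2-fold higher and 89 lower, and in decile 10, 41 were higher and 208 lower. Across genes the Spearman correlation with length was −0.23 under periostin and −0.015 with vehicle, and with GC content it was −0.018 under periostin. With the length trend removed, 855 genes were higher and 1424 lower. Although the lower count was unchanged, the genes were not all the same: 2004 of the 2374 genes called before removal were still called. The part of this trend in any single gene's difference was not tested. Beside lists whose median exon length was 1970.5 bases or less, the list median without it is given as the median without the length trend. It is also given for the longer lists of megakaryocyte, dendritic cell, class I, fibrous matrix and basement membrane genes, whose medians moved too.

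**Figure D2:**
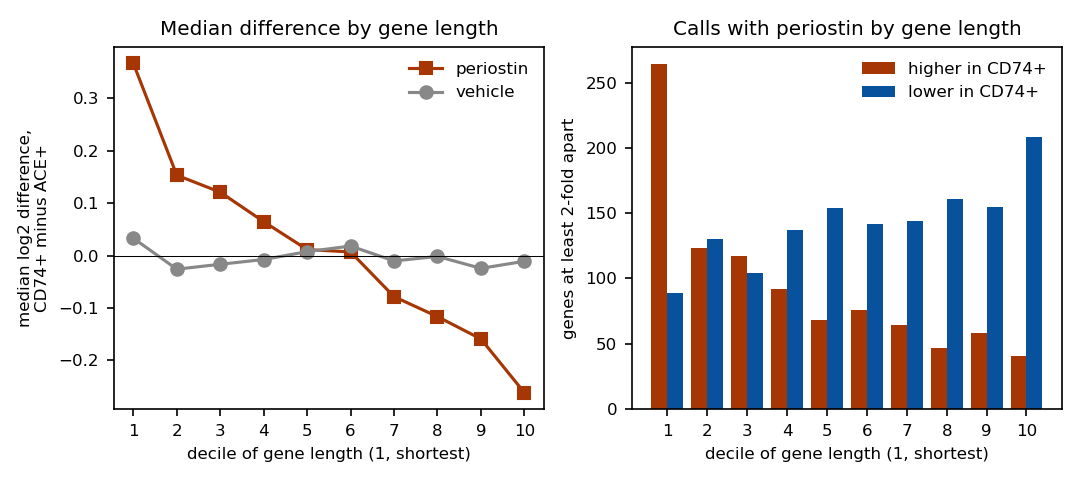
Left, median log2 difference between CD74+ and ACE+ cells in deciles of summed exon length, under periostin (squares) and with vehicle (circles). Right, number of genes at least 2-fold higher or lower in CD74+ cells under periostin in the same deciles; the periostin medians fall from 0.37 to −0.26, while the vehicle medians stay between −0.026 and 0.033.

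Many of the genes with the largest negative difference are genes of the B-cell lineage. Cd79a (ENSMUSG00000003379, GRCm38 chromosome 7, 24897381 to 24902197) and Cd79b (chromosome 11, 106311341 to 106314762) encode the signalling chains of the B-cell receptor. Cd79a stood at 113 CPM in ACE+ and 2.60 CPM in CD74+ cells under periostin, 43.6-fold lower (30.3 to 65.3), and Cd79b at 142 and 10.3 CPM, 13.8-fold lower (11.5 to 16.8). Ms4a1 (chromosome 19, 11249675 to 11266241), which encodes CD20, had 57.9 and 1.26 CPM, 46.1-fold lower (27.4 to 84.6). Both ACE+ libraries held these 3 genes at 57.9 CPM or more, and neither CD74+ library held any of them above 10.3 CPM.

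Immunoglobulin genes and other genes of B cells followed. Igkc (chromosome 6, 70726435 to 70726966), the kappa light chain constant region, had 240 CPM in ACE+ and 13.5 CPM in CD74+ cells under periostin, 17.8-fold lower (15.1 to 21.1). Ighm, the mu heavy chain, had 839 and 84.5 CPM, 9.93-fold lower (9.30 to 10.6). Pou2af1, a co-activator of immunoglobulin genes, was 12.6-fold lower (9.97 to 16.2), and Fcrla, an intracellular Fc receptor-like protein of B cells, 23.7-fold lower (15.7 to 37.6). H2-Ob (chromosome 17, 34238903 to 34254414), the beta chain of H2-O, which restrains MHC class II peptide loading and is found mainly in B cells, had 39.3 and 1.44 CPM, 27.4-fold lower (16.8 to 48.1). Dtx1, a regulator of Notch signalling, was 27.5-fold lower (15.3 to 55.5), from 27.2 CPM to 0.987 CPM. One immunoglobulin gene stood the other way: Igha, the alpha heavy chain, had 0.736 CPM in ACE+ and 11.4 CPM in CD74+ cells under periostin, 15.5-fold higher (9.04 to 28.5).

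Of 18 B-cell and plasma-cell genes listed, Igha not among them, 9 could be compared. Of these, 7 were at least 2-fold lower and 0 higher in CD74+ cells. The median log2 difference was −3.66, or −3.82 without the length trend. Blnk, an adaptor of B-cell receptor signalling that was at 63.7 and 64.6 CPM, and Vpreb1, at 1.08 and 1.17 CPM, were within 2-fold. A further 7 were at 0 in the CD74+ periostin library, among them Cd22 (30.8 CPM in ACE+) and the genes of the B-lineage transcription factors Ebf1 (26.3 CPM) and Pax5 (14.5 CPM). Rag1, which cuts antigen receptor genes in immature lymphocytes, was at 42.3 CPM in ACE+ and 2.06 CPM in CD74+ cells. Summed over the list, the level was 1744 CPM in ACE+ and 186 CPM in CD74+ cells under periostin, and 1775 and 198 CPM with vehicle. Whether the difference came from fewer B cells or from less of these RNAs per cell cannot be told apart in bulk libraries.

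**Figure D3:**
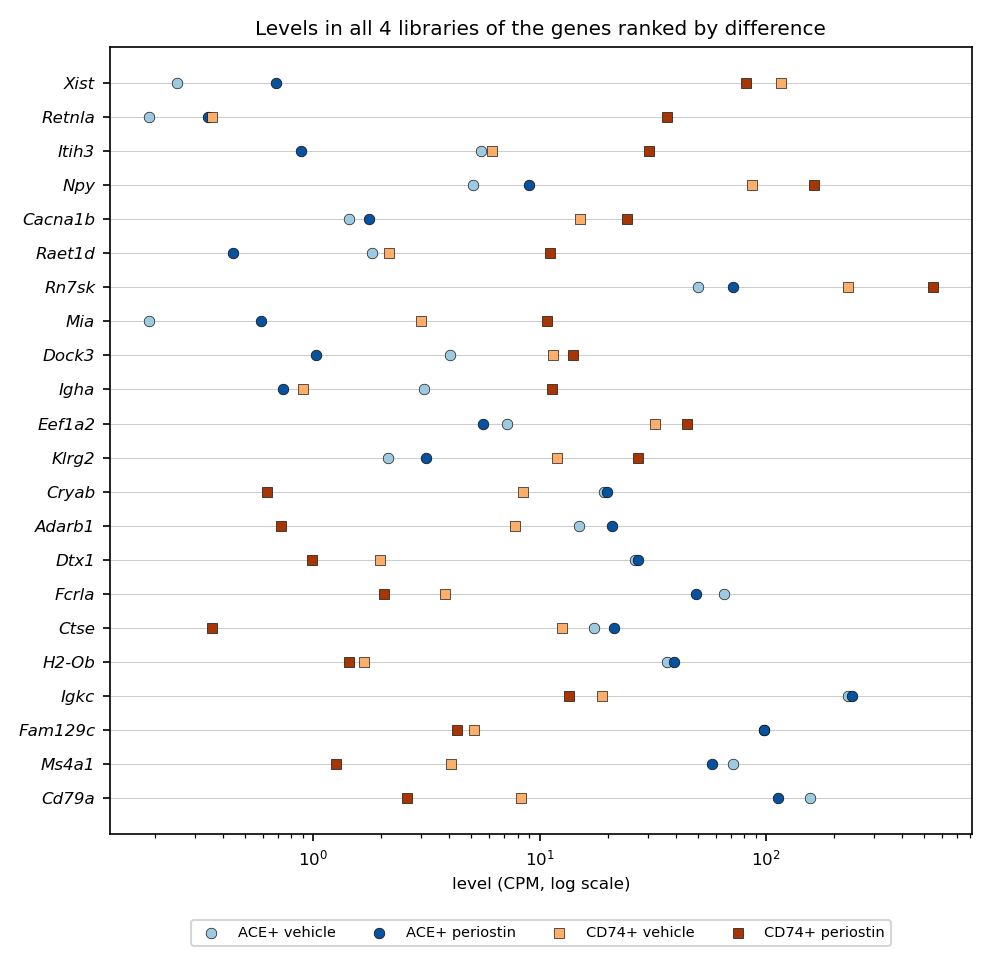
Levels in CPM on a log scale, 1 point per library, of 12 genes higher and 10 lower in CD74+ periostin, from the genes with the largest difference at 5 CPM or more in the higher periostin-treated library. Cd79a, Ms4a1 and H2-Ob are low in both CD74+ libraries, whereas Retnla is high in CD74+ periostin and below 1 CPM in the other 3 libraries.

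Markers of most other blood cell types were also lower in the CD74+ library. Of 12 erythroid genes 6 were at least 2-fold lower and 0 higher, with a median of −1.02, or −1.06 without the length trend: Alas2, the first enzyme of haem synthesis in erythroid cells, had 42.5 and 3.77 CPM, 11.3-fold lower (8.27 to 15.8), and Hbb-bs, an adult beta globin, 1061 and 226 CPM, 4.69-fold lower (4.50 to 4.89). Hbb-bs has a near-identical neighbour, Hbb-bt, and reads may be split between them. Of 16 megakaryocyte and platelet genes, a list written after the levels were seen, 7 were lower and 0 higher. Their median was −0.86, or −0.995 without the length trend. Treml1, a receptor of platelet granules chosen after its values were seen, stood at 276 CPM in ACE+ and 87.9 CPM in CD74+ cells, 3.14-fold lower (2.93 to 3.36). Pf4 and Gp1bb of the same list had higher levels in CD74+ cells, Pf4 904 and 1058 CPM and Gp1bb 116 and 212 CPM, though 92.9% of the exon bases of Gp1bb lie over another gene.

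Neutrophil genes had lower levels in CD74+ cells for 16 of 18 members compared. The count at least 2-fold lower was 8, and 0 were higher, with a median of −0.89, or −1.02 without the length trend. Prtn3, the gene of proteinase 3, had 14.2 and 0.628 CPM, 22.6-fold lower (10.8 to 56.7). Mmp8, the neutrophil collagenase, had 804 and 177 CPM, 4.55-fold lower (4.34 to 4.77). Csf3r, the G-CSF receptor, was 3.97-fold lower (3.76 to 4.19), whereas Camp and Ngp, genes of secondary granules, differed 1.13-fold and 1.08-fold. S100a8 and S100a9, the calprotectin subunits, had 11740 and 11261 CPM in ACE+ cells and 9038 and 7877 CPM in CD74+ cells. The summed neutrophil level was 29999 CPM in ACE+ and 21547 CPM in CD74+ cells under periostin, and 25005 and 13596 CPM with vehicle.

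Dendritic cell genes gave 6 lower and 0 higher of 12, with a median of −1.001, or −0.86 without the length trend. Cd209a, a lectin of monocyte-derived dendritic cells, had 12.2 and 0.449 CPM, 27.2-fold lower (11.5 to 84.6), and Flt3, the receptor for the dendritic cell growth factor FLT3 ligand, 38.8 and 10.9 CPM, 3.57-fold lower (2.95 to 4.36). Siglech and Tcf4, genes of plasmacytoid dendritic cells, were 3.41-fold and 2.34-fold lower. Ccr7, the receptor that guides mature dendritic cells to lymph nodes, went the other way, at 125 and 214 CPM.

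T-cell and NK-cell genes were sparse. Only 5 of 18 could be compared, with 2 lower, 0 higher and a median of 0.26; it was −1.43 when genes listed in only 1 table were included and −0.60 with a minimum of 5 CPM. Cd4 had 10.8 and 0.987 CPM, but 5.46 and 8.85 CPM with vehicle. Cd3d, Cd3g, Cd2, Cd8a and Lck had 0 reads in the CD74+ periostin library against 1.67 to 6.77 CPM in ACE+ cells. Il7r, the interleukin-7 receptor, was at 99.7 and 197 CPM. Of 9 eosinophil, basophil and mast cell genes 3 were lower and 1 was higher, with a median of −0.25 with and without the length trend. Of 7 muscle genes 2 were lower and 1 was higher. Their median of −0.43 was −0.095 without the length trend, −0.20 with a minimum of 5 CPM and −0.23 with 5 CPM added.

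**Figure D4:**
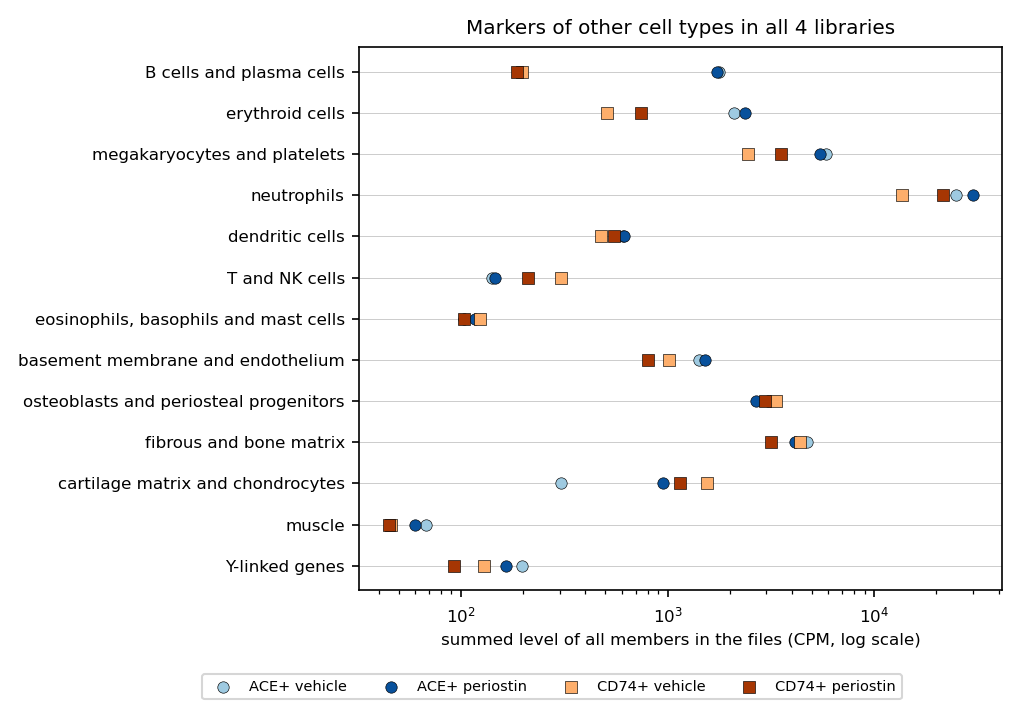
Summed level of the members of each marker list in the 4 libraries, in CPM on a log scale; circles are ACE+ and squares CD74+ libraries, light for vehicle and dark for periostin. B-cell and erythroid sums are lower in both CD74+ libraries, while the cartilage sum is lowest in ACE+ vehicle at 306 CPM.

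Among genes higher in CD74+ cells, Retnla had the largest difference after Xist. Retnla (ENSMUSG00000061100, chromosome 16, 48842551 to 48844461) encodes RELM-alpha, a secreted protein of alternatively activated macrophages. It had 0.188 CPM in ACE+ vehicle, 0.343 CPM in ACE+ periostin, 0.359 CPM in CD74+ vehicle and 36.6 CPM in CD74+ periostin, and was 107-fold higher under periostin (51.3 to 267). The level stood apart in 1 library of the 4, resting on 408 reads there. Of 11 genes of the alternative activation list compared, 7 had higher and 4 lower levels in CD74+ cells, with a median of 0.17. Retnla was the 1 at least 2-fold higher, and 3 were at least 2-fold lower. Cd209a and Clec10a, both lectins, were 27.2-fold and 7.27-fold lower, Chil3 was at 843 and 974 CPM, and Mrc1, the mannose receptor, at 5.59 and 10.3 CPM.

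Npy (chromosome 6, 49822710 to 49829507), which encodes neuropeptide Y, had 5.08 and 8.98 CPM in ACE+ cells and 87.2 and 162 CPM in CD74+ cells, 18.1-fold higher under periostin (15.5 to 21.2). Both CD74+ libraries were above both ACE+ libraries. Itih3 (chromosome 14, 30908572 to 30923760), a heavy chain that is joined to hyaluronan, had 5.52 and 0.883 CPM in ACE+ cells and 6.16 and 30.3 CPM in CD74+ cells, 34.3-fold higher (21.4 to 58.6). Its periostin libraries lay on either side of both vehicle libraries. Cacna1b, a neuronal-type calcium channel subunit, was 13.8-fold higher (9.70 to 20.1), from 1.77 to 24.3 CPM. Dock3 was 13.6-fold and Klrg2 8.69-fold higher, and Eef1a2, an elongation factor known from neurons and muscle, 7.92-fold (6.45 to 9.78). For Mia and Raet1d, 18.3-fold and 25.2-fold higher, 41.2% and 25.2% of the exon bases lie over another gene.

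Rn7sk (chromosome 9, 78175303 to 78175633), the small nuclear RNA that holds the elongation kinase P-TEFb inactive, had 71.8 and 546 CPM, 7.61-fold higher (7.18 to 8.06), and 50.4 and 230 CPM with vehicle. It is 331 bases long and lies in decile 1 of gene length. Rpph1, the RNA of ribonuclease P, had 16.8 and 73.1 CPM, but 73.0% of its bases lie over another gene. Stfa1, a cysteine protease inhibitor of myeloid cells with close paralogs, was 4.16-fold higher (3.84 to 4.51).

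Of these ranked genes, 18 lower and 21 higher at 5 or 50 CPM, 16 lower and 16 higher ones were also past 2-fold the same way between the vehicle libraries. Exceptions among the lower genes were Ctse, which encodes cathepsin E, and Adarb1, an RNA-editing deaminase. Ctse (chromosome 1, 131638306 to 131675505) had 17.4 and 21.2 CPM in ACE+ cells, 12.6 CPM in CD74+ vehicle and 0.359 CPM in CD74+ periostin, 59.2-fold lower (22.96 to 218). Among the higher genes the exceptions were Retnla, Itih3, Raet1d, Igha and Stfa1. In a fit of all 4 libraries in edgeR with treatment as a block and 1 residual degree of freedom, 808 genes (5.91%) were higher and 1259 (9.2%) lower in CD74+ cells at a Benjamini-Hochberg adjusted p under 0.05. The fit contains the same periostin libraries by which genes were ranked, so its calls are not separate evidence for them. It also treats the vehicle and periostin libraries of a subset as replicates. It called 336 of the 950 higher and 793 of the 1424 lower genes, and 38 of the 39 ranked genes. Igha was not called, with an adjusted p of 0.50. Retnla was called, although its log2 difference was 0.19 with vehicle against 4.81 under periostin.

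Macrophage identity genes were mixed. Of 23 compared, 7 were at least 2-fold higher and 2 lower in CD74+ cells, with a median of 0.43. Cd14 (chromosome 18, 36725067 to 36726798), the lipopolysaccharide co-receptor, had 82.0 and 77.3 CPM in ACE+ cells and 215 and 332 CPM in CD74+ cells, 4.29-fold higher under periostin (4.04 to 4.55). Fcgr1, the high-affinity IgG receptor, was 4.64-fold higher (3.32 to 6.58). Trem2, a lipid receptor, was at 115 and 252 CPM, and Timd4, a phosphatidylserine receptor of resident macrophages, at 1.18 and 6.46 CPM. Lyve1 and Mertk, a hyaluronan receptor and a receptor for dying cells, were lower, 5.68-fold (3.21 to 10.9) and 3.89-fold (2.81 to 5.51). Lyve1 was also lower with vehicle, at 15.1 and 2.45 CPM, but Mertk was not, at 12.2 and 14.5 CPM. Adgre1, which encodes F4/80, was at 39.7 and 19.4 CPM, Csf1r at 302 and 310 CPM, and Cd163 had 0 reads in both CD74+ libraries and 0.343 CPM in ACE+ periostin.

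Of 16 scavenger and lectin genes, receptors for lipid, debris and microbes, 2 (12.5%) were higher and 2 (12.5%) lower, against 6.94% and 10.4% of all genes, with a median of 0.04. Cd36 (chromosome 5, 17781690 to 17888801), a scavenger receptor for oxidised lipoproteins and fatty acids, had 168 and 162 CPM in ACE+ cells and 814 and 645 CPM in CD74+ cells, 3.99-fold higher under periostin (3.83 to 4.16). Marco, a bacterial scavenger receptor, was at 1.57 and 5.47 CPM, 3.49-fold higher (2.24 to 5.53), but stood the other way with vehicle at 2.95 and 0.0598 CPM. Colec12 was 2.66-fold lower (2.10 to 3.40), but at 16.1 and 24.4 CPM with vehicle.

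Among 19 Toll-like and Fc receptors and their adaptors 3 (15.8%) were higher and 3 (15.8%) lower, with a median of −0.24. The shares of all genes were 6.94% and 10.4%. Fcgr4 joined Fcgr1 and Cd14 as higher, at 36.0 and 85.0 CPM. Tlr1 and Tlr6, which pair with Tlr2 to sense bacterial lipopeptides, were 3.07-fold (2.58 to 3.67) and 2.91-fold (2.31 to 3.72) lower, while Tlr2 itself was at 102 and 113 CPM. Tlr9, a sensor of unmethylated DNA, was at 20.7 and 9.69 CPM. Of the 8 other members with lower levels in CD74+ cells, none reached 2-fold on the log2 scale with 1 CPM added.

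Complement genes had a median of 0.72, with 4 higher and 3 lower of 13; with C1ra and C1s1 included, which had 1.82 and 3.78 CPM in ACE+ and 0 reads in CD74+ periostin, it was −0.0035. It was 0.25 with 5 CPM added and 0.41 with a minimum of 5 CPM. C1qa, C1qb and C1qc, the chains of the C1q recognition molecule, were higher together, at 15.9 and 36.9, 30.4 and 65.3, and 18.1 and 40.2 CPM in ACE+ and CD74+ cells. Their folds were 2.32 (2.0003 to 2.69), 2.15 (1.93 to 2.39) and 2.22 (1.93 to 2.55). C3ar1 (chromosome 6, 122847138 to 122856161), the receptor of the C3a fragment, had 47.5 and 55.6 CPM in ACE+ cells and 230 and 222 CPM in CD74+ cells, 3.99-fold higher (3.72 to 4.29). C5ar1 was at 192 CPM in both, and C3 at 231 and 227 CPM. Itgax, the CD11c chain of complement receptor 4, was 2.79-fold lower (2.28 to 3.44).

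In the antigen presentation lists, the classical class II genes had somewhat higher levels in CD74+ cells. H2-Aa was at 168 and 247 CPM, H2-Ab1 at 114 and 186, and H2-Eb1 at 120 and 168, differences of 1.40-fold to 1.63-fold. Ctss, the protease that trims CD74, was at 1023 and 2016 CPM, 1.97-fold (1.93 to 2.01), and Ifi30, a thiol reductase of the same compartment, at 263 and 476 CPM. Of 16 class II genes 1 (Cd74, 6.25%) was at least 2-fold higher and 3 (18.75%) were lower, against 6.94% and 10.4% of all genes. Their median of 0.09 became −0.038 without the length trend. The lower ones were H2-Ob, Ciita, the master regulator of class II genes, at 12.3 and 2.78 CPM, and Cd80, a co-stimulatory ligand. Cd80 was at 8.34 and 1.44 CPM, 5.81-fold lower (3.48 to 10.4), but at 9.53 and 16.6 CPM with vehicle. Class I presentation gave 1 higher and 0 lower of 18 and a median of 0.14, or 0.03 without the length trend. The 1 was B2m, the invariant light chain, at 1470.5 and 3293 CPM, 2.24-fold higher (2.21 to 2.27), while H2-K1 and H2-D1 were at 629 and 863 and at 1565 and 1358 CPM.

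Interferon-stimulated genes had the highest list median, 0.79, and 0.64 with vehicle; 10 of 26 were at least 2-fold higher and 1 was lower. These genes answer interferons through transcription factors that bind a GAAA-repeat element near the start of transcription. For 21 of the 27 listed genes a RefSeq promoter was at hand (GRCm38.p6, 250 bases before to 50 after the start). The letters GAAANNGAAA, where N is any base, were searched on both strands, with overlapping matches counted. They occurred in 14 of the 21 (66.7%) and in 1079 of 27025 genes in all (3.99%). Because the list was chosen as genes that answer interferons, this excess says nothing about the difference between subsets. Of the members at least 2-fold higher, 5 of 6 with a promoter held a match, and of the other compared members 8 of 14 did. The 4 promoters below are shown because they hold matches in members that differ, from Oas1a, the highest of the list, to Igtp, at a log2 difference of −0.78, with matches in capitals. The 1 member at least 2-fold lower, Ifi47, at −1.71, held no match in its window and is not printed:
Oas1a, chr5:120907476-120907775, minus strand: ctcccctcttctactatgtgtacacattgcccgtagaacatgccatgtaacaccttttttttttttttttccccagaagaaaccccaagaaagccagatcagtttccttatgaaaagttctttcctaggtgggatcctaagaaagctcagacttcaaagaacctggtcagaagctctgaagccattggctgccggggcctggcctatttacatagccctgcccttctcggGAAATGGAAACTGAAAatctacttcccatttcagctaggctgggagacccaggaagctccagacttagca
Rsad2, chr12:26456403-26456702, minus strand: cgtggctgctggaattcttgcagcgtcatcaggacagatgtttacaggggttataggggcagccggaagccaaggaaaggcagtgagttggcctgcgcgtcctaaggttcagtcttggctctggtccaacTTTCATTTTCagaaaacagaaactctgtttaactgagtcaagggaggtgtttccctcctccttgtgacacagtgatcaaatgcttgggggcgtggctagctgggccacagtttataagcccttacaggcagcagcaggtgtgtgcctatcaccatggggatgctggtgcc
Isg15, chr4:156200769-156201068, minus strand: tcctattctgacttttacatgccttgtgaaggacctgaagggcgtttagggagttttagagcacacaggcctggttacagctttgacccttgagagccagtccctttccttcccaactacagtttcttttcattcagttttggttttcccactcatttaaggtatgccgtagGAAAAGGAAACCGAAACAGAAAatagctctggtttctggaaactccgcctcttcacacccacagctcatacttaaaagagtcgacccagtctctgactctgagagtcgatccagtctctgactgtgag
Igtp, chr11:58199306-58199605, plus strand: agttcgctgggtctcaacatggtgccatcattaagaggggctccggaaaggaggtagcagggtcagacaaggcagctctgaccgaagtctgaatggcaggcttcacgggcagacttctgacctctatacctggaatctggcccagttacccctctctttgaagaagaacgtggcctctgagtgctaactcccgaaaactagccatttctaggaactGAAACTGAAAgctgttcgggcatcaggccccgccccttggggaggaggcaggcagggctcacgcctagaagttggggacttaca

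In the Oas1a window 2 overlapping matches began 20 and 14 bases before the annotated start, and in that of Isg15 3 overlapping matches began between 78 and 66 bases before it. Rsad2 held 1 match on the opposite strand, 120 bases before the start, and Igtp 1 match, 34 bases before it. A match is a description of the letters in the window and not a measured binding site.

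Oas1a (chromosome 5, 120896256 to 120907521), an enzyme that makes the messenger 2-5A on double-stranded RNA, had 27.6 and 22.1 CPM in ACE+ cells and 88.4 and 97.6 CPM in CD74+ cells, 4.41-fold higher under periostin (3.95 to 4.93). Usp18, a protease that removes ISG15 and dampens interferon receptor signalling, had 13.8 and 49.1 CPM, 3.55-fold higher (3.07 to 4.11). Rsad2, the antiviral enzyme viperin, was at 27.6 and 65.5 CPM, and Isg15, the ubiquitin-like modifier itself, at 9.57 and 20.4 CPM. Mx1, Oas2, Oasl2, Ifit1, Ifi204 and Gbp3 were the other 6 higher members, at 2.14-fold to 3.18-fold. In all 10, the CD74+ library was also higher with vehicle.

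Not all of the list had this direction. Ifi47 and Igtp, GTPases induced mainly by interferon gamma, were at 28.5 and 7.98 CPM and at 112 and 64.7 CPM, 3.56-fold (2.85 to 4.51) and 1.73-fold (1.59 to 1.88) lower. Irgm1, of the same family, was at 42.3 and 73.5 CPM. Genes of the transducers and sensors were close between the libraries: Stat2 at 75.0 and 75.1 CPM, Irf1 at 73.6 and 61.7, Ifih1 at 14.8 and 14.4, and Ddx58 at 52.8 and 37.7.

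**Figure D5:**
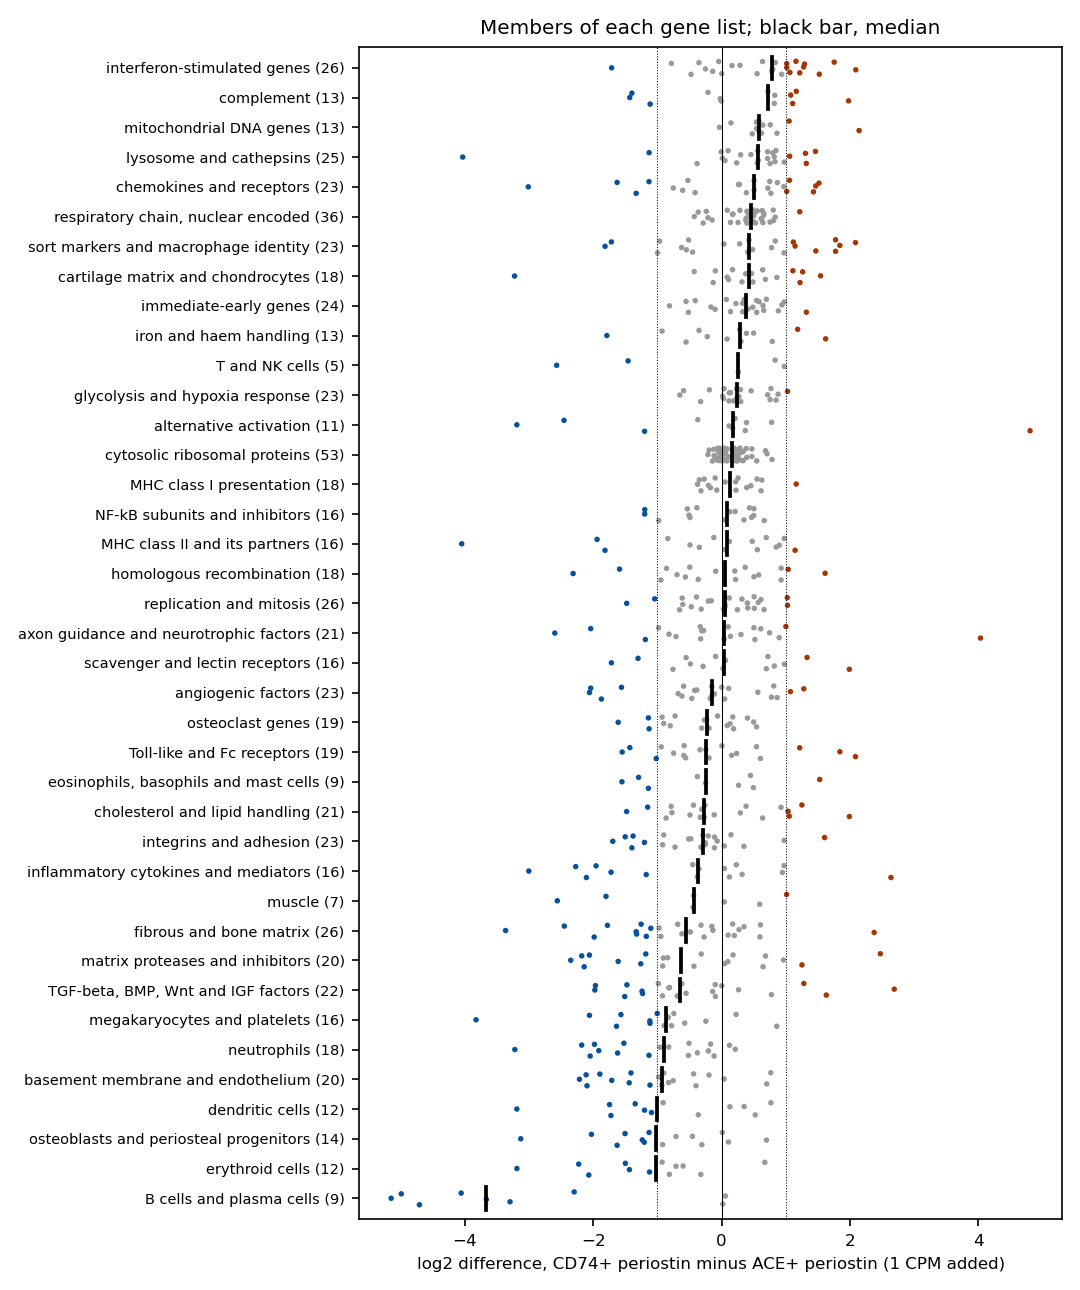
Log2 difference of each compared member of the gene lists, CD74+ periostin minus ACE+ periostin with 1 CPM added; brown points are at least 2-fold higher, blue at least 2-fold lower, black bars are medians, and the number compared is in parentheses. Interferon-stimulated genes are at the top with a median of 0.79 and B-cell genes at the bottom with −3.66.

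Of 23 chemokines and receptors 5 were higher and 4 lower, with a median of 0.51, or 0.38 without the length trend. Ccl3, a chemokine for monocytes, was at 120 and 345 CPM, 2.88-fold (2.74 to 3.03), Cxcl2 at 29.8 and 84.1 CPM, 2.83-fold (2.55 to 3.13), and Ccl9 and Ccl4 at 2.72-fold and 2.11-fold. Cxcl16 was the fifth higher member, at 75.3 and 153 CPM, whereas Ccl6 was at 24.4 and 16.7 CPM. Ccr2, the receptor that brings inflammatory monocytes to tissue, had 28.4 and 26.6 CPM in ACE+ cells and 6.46 and 2.42 CPM in CD74+ cells, 10.98-fold lower under periostin (7.46 to 16.8). Cxcl12, a stromal chemokine that retains haematopoietic cells, was at 50.04 and 15.5 CPM, 3.22-fold lower (2.74 to 3.81), and Ccl7 had 10.7 CPM in ACE+ and 0 reads in CD74+ cells under periostin.

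Cytokines and inflammatory mediators had a median of −0.37, or −0.39 without the length trend, against 0.27 with vehicle; 1 of 16 was higher and 6 were lower. Il12a, a subunit of interleukin-12 and interleukin-35, was at 15.7 and 1.08 CPM, 14.5-fold lower (8.21 to 28.4), and Lif, a cytokine of the interleukin-6 family, at 14.7 and 2.24 CPM, 6.54-fold lower (4.34 to 10.3). Il1a was at 10.3 and 1.61 CPM, Csf3 at 3.78 and 0.449, and Il6 at 4.76 CPM and 0 reads. Tnf stood higher, at 47.5 and 92.6 CPM, 1.95-fold (1.78 to 2.13), and Il1b was at 38.3 and 27.8 CPM. Saa3, an acute-phase protein, was the 1 higher member, at 3.34 and 26.01 CPM, 7.80-fold (5.97 to 10.3); with vehicle it was at 12.9 and 22.7 CPM.

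Among 16 NF-kB subunits and inhibitors 0 were higher and 2 lower, with a median of 0.09. The 2 were the inhibitor genes Nfkbid, at 82.8 and 35.5 CPM, and Nfkbie, at 34.4 and 14.4 CPM. Rela and Nfkb1, the canonical subunits, were at 142 and 182 and at 120 and 82.8 CPM, and the target and inhibitor Nfkbia at 202 and 209. Of 24 immediate-early genes 18 had higher levels in CD74+ cells, but 1 reached 2-fold with 1 CPM added, Dusp1, a phosphatase of MAP kinases, at 83.2 and 209 CPM, 2.52-fold (2.36 to 2.68). Nr4a1, an orphan nuclear receptor, was at 20.7 and 41.7 CPM, a plain ratio of 2.01 and a log2 difference of 0.98, against 16.6 and 7.71 CPM with vehicle, and Egr1 at 48.3 and 32.6 CPM.

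Of 26 genes of fibrous and bone matrix 18 had lower levels in CD74+ cells. Of them all, 9 were at least 2-fold lower and 1 was higher. Their median was −0.55, or −0.40 without the length trend. Col5a2 (chromosome 1, 45374321 to 45503282), a chain of fibril-forming collagen V, had 166 and 135 CPM in ACE+ cells and 35.3 and 12.2 CPM in CD74+ cells, 11.1-fold lower under periostin (9.31 to 13.2). Col1a1 and Col1a2, the chains of collagen I, were at 283 and 118 and at 313 and 90.6 CPM. Dcn, the proteoglycan decorin, was 5.93-fold lower (4.86 to 7.30), and Postn, the gene of periostin itself, had 28.4 and 10.7 CPM, 2.66-fold lower (2.18 to 3.26). Fn1 and Thbs1, matrix proteins that macrophages also make, were at 661 and 745 and at 1289.8 and 1161 CPM. Col14a1 was the 1 higher member, from 0.245 to 5.47 CPM, 22.3-fold (9.05 to 71.1), on 5 reads in the ACE+ library.

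Osteoblast and progenitor genes had a median of −1.02, with 7 of 14 lower and 0 higher. Bglap, which encodes osteocalcin, had 50.1 and 4.84 CPM, 10.4-fold lower (7.87 to 13.9), though it lies beside its near-identical copy Bglap2, at 22.5 and 8.97 CPM. Pdgfra, the receptor that marks mesenchymal progenitors, was at 17.0 and 3.41 CPM, 4.98-fold lower (3.56 to 7.16). Dmp1 (chromosome 5, 104202613 to 104214102), a matrix protein of osteocytes, had 184 and 114 CPM in ACE+ cells and 0 reads in both CD74+ libraries, at least 424-fold lower under periostin against a floor of 3 reads per library. Spp1, or osteopontin, which macrophages also secrete, was the exception at 1516 and 2464 CPM, 1.62-fold higher (1.60 to 1.65), with 18.8% of its exon bases over another gene. With Spp1 included, the summed osteoblast level was 2672 CPM in ACE+ and 2970 CPM in CD74+ cells.

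Basement membrane and endothelial genes gave 8 lower and 0 higher of 20, with a median of −0.93, or −0.82 without the length trend. Plvap, a protein of endothelial fenestrae, was at 21.5 and 3.86 CPM, 5.58-fold lower (4.08 to 7.83), and Cdh5, endothelial cadherin, at 63.5 and 14.1 CPM, 4.51-fold lower (3.82 to 5.36). Pecam1, also carried by leukocytes and platelets, was at 156 and 115 CPM. Their summed level was 1522 CPM in ACE+ and 808 CPM in CD74+ cells under periostin, and 1422 and 1012 CPM with vehicle.

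Cartilage genes had higher levels in CD74+ cells for 14 of 18 members compared. Of these 4 were higher and 1 lower, with a median of 0.42 under periostin and 1.48 with vehicle; the summed levels were 306 and 948 CPM in ACE+ cells and 1549 and 1151 CPM in CD74+ cells. Cnmd, the cartilage glycoprotein chondromodulin, was at 3.78 and 12.9 CPM, 3.42-fold higher (2.58 to 4.57), and Chad, chondroadherin, at 24.0 and 59.1 CPM. Col2a1 and Acan, the main collagen and proteoglycan of cartilage, were at 520 and 676 and at 41.4 and 65.0 CPM. Col10a1, a collagen of hypertrophic chondrocytes, had 25.7 and 64.6 CPM in ACE+ cells, 169 CPM in CD74+ vehicle and 6.01 CPM in CD74+ periostin. It was 10.7-fold lower under periostin (8.40 to 13.9) and stood the other way with vehicle.

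Of 20 matrix proteases and inhibitors 2 were higher and 7 lower, with a median of −0.64 that was −0.36 with 5 CPM added and −0.37 with a minimum of 5 CPM. Mmp12 (chromosome 9, 7344381 to 7369499), the macrophage elastase, had 29.9 and 30.8 CPM in ACE+ cells and 219 and 176 CPM in CD74+ cells, 5.70-fold higher under periostin (5.21 to 6.25). Mmp2, a gelatinase of stromal cells, was at 38.4 and 6.73 CPM, 5.71-fold lower (4.50 to 7.34), and Mmp9, the gelatinase of neutrophils and osteoclasts, at 816 and 267 CPM, 3.06-fold lower (2.94 to 3.18). Mmp3 and Mmp13 were 4.74-fold and 5.11-fold lower. Adam8, Plaur and Timp2 had higher levels in CD74+ cells, at 1.57-fold, 1.96-fold and 1.61-fold.

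Integrin genes that pair to bind periostin had levels in CD74+ cells at or below those in ACE+ cells. Itgav was at 105 and 91.0 CPM, 1.16-fold lower (1.07 to 1.25), Itgb5 at 145 and 116 CPM, 1.25-fold lower (1.17 to 1.34), and Itgb3 at 1012 and 541 CPM, 1.87-fold lower (1.82 to 1.92). None of the 3 reached 2-fold, and Itgb3 is also carried by platelets and osteoclasts. Over 23 integrin and adhesion genes 1 (4.35%) was higher and 5 (21.7%) lower, against 6.94% and 10.4% of all genes. Their median was −0.29. Itga4, of the receptor for VCAM1, was at 79.2 and 23.8 CPM, 3.33-fold lower (2.92 to 3.81), and Itgb8, of a TGF-beta activating integrin, at 0.687 and 4.13 CPM, 6.01-fold higher (3.25 to 11.8).

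Osteoclast genes, of the bone-resorbing relatives of macrophages, had a median of −0.23, with 3 of 19 (15.8%) lower, against 10.4% of all genes, and 0 higher. The 3 were Mmp9, Acp5, the tartrate-resistant acid phosphatase, at 365 and 165 CPM, 2.21-fold lower (2.10 to 2.33), and Ctsk, the collagen-degrading cathepsin K, at 671 and 306 CPM, 2.19-fold lower (2.11 to 2.28). Nfatc1 and Tnfrsf11a, the master transcription factor and the RANK receptor, were at 138 and 120 and at 19.97 and 22.9 CPM.

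Of 22 TGF-beta, BMP, Wnt and IGF genes 16 had lower levels in CD74+ cells, among them 6 past 2-fold, and 3 were past 2-fold higher, with a median of −0.65 under periostin and −0.71 with vehicle. Igf1, a growth factor that macrophages secrete, was at 21.7 and 54.3 CPM, 2.50-fold higher (2.21 to 2.83), and Bmp6, an osteogenic factor, at 2.80 and 10.8 CPM, 3.85-fold higher (2.79 to 5.37). Dkk1, a Wnt inhibitor, was at 0.294 and 7.36 CPM, 25.0-fold higher (11.002 to 70.1), and stood the other way with vehicle at 2.01 and 0.239 CPM. Inhba, of activin A, and Wnt10b were 6.39-fold (3.63 to 12.3) and 8.59-fold (4.03 to 21.9) lower, and Tgfb1 was at 401 and 402 CPM. Inhba and Wnt10b were not lower with vehicle, at 5.58 and 7.12 and at 4.20 and 8.07 CPM.

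Among 23 angiogenic factors 2 (8.70%) were higher and 4 (17.4%) lower, against 6.94% and 10.4% of all genes, with a median of −0.15. Angpt1, an angiopoietin, was at 57.0 and 12.9 CPM, 4.41-fold lower (3.71 to 5.28), and Vegfa at 91.1 and 60.1 CPM, 1.52-fold lower (1.39 to 1.66). In 21 axon guidance and neurotrophic genes 2 (9.52%) were higher and 3 (14.3%) lower. Their median of 0.04 was −0.28 with genes listed in only 1 table included. Beside Npy, Sema3a, a repellent of axons, was at 0.932 and 2.87 CPM, 3.08-fold higher (1.69 to 5.75). Slit2 and Ephb4, guidance cues of axons and vessels, were 7.96-fold (4.07 to 17.8) and 10.4-fold (5.97 to 19.8) lower.

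Lysosomal genes had higher levels in CD74+ cells for 21 of 25 members, with a median of 0.57; 4 were at least 2-fold higher and 2 lower. Ctsb and Ctsl, cysteine cathepsins, were at 3255 and 8127 CPM, 2.50-fold (2.47 to 2.52), and at 236 and 651 CPM, 2.76-fold (2.66 to 2.87); 12.8% and 26.8% of their exon bases lie over another gene. Ctsa and Ctsz were 2.48-fold and 2.09-fold higher, and Ctsd and Psap, at 6118 and 10056 and at 6125 and 9058 CPM, 1.64-fold and 1.48-fold. The 2 lower members were Ctse and Ctsk.

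Of 21 genes of cholesterol and lipid handling 4 (19.0%) were higher and 2 (9.52%) lower, against 6.94% and 10.4% of all genes. Their median was −0.27. Beside Cd36, the lipid droplet coat gene Plin2 was at 547 and 1305 CPM, 2.38-fold higher (2.33 to 2.44), the lipase gene Lpl at 227 and 467 CPM, and the cholesterol exporter gene Abcg1 at 46.2 and 97.0 CPM. In the cholesterol synthesis pathway, Dhcr7 was at 42.0 and 14.4 CPM, 2.91-fold lower (2.46 to 3.47), and Hmgcs1 at 222 and 128 CPM. Scd2, a fatty acid desaturase, was 2.24-fold lower (2.08 to 2.41).

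Of 13 genes of iron and haem handling 2 (15.4%) were higher, against 6.94% of all genes, and 1, the ferroxidase Cp, was lower, with a median of 0.28. Hmox1, haem oxygenase, was at 2107 and 4793 CPM, 2.28-fold (2.25 to 2.30), Steap3, a ferrireductase, at 23.7 and 75.0 CPM, 3.16-fold (2.83 to 3.55), and Fth1, ferritin heavy chain, at 15005 and 25940.3 CPM, 1.73-fold (1.72 to 1.74). Slc40a1, the iron exporter, was at 301 and 205 CPM. Among 23 genes of glycolysis and the hypoxia response 1 was higher and 0 lower, with a median of 0.23; it was Slc2a1, the glucose transporter GLUT1, at 65.4 and 135 CPM, 2.06-fold (1.91 to 2.22).

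Ribosomal and respiratory genes, most of them short, had small positive differences. Of 53 cytosolic ribosomal protein genes 0 passed 2-fold either way, and 39 had a positive difference, with a median of 0.16 that became −0.06 once the length trend was removed. Among 36 nuclear respiratory chain genes 1 was higher and 0 lower, with a median of 0.46, or 0.29 without the trend; Uqcrq, a small subunit of complex III, was at 78.2 and 183 CPM, 2.34-fold (2.19 to 2.50). Of 13 genes on mitochondrial DNA 2 were higher and 0 lower, with a median of 0.58, or 0.32 without it. Mt-Nd6, on the strand opposite to the other 12, was at 21.9 and 100.3 CPM, 4.57-fold higher (4.09 to 5.11), while mt-Co1 was at 5815 and 5685 CPM. Ribosomal and mitochondrial genes have near-identical copies elsewhere in the genome, so their absolute levels depend on how shared reads were counted.

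Replication and mitosis genes showed no common direction, with 2 (7.69%) higher and 2 (7.69%) lower of 26 and a median of 0.05. The shares of all genes were 6.94% and 10.4%. Pcna, the replication clamp, was at 128 and 262 CPM, 2.04-fold higher (1.94 to 2.15), and Mki67 at 93.9 and 149 CPM, 1.59-fold (1.49 to 1.70). Cenpf, a kinetochore gene, was at 14.9 and 6.73 CPM. In homologous recombination 2 of 18 (11.1%) were higher and 2 (11.1%) lower, with a median of 0.06. Brip1, a DNA helicase, was at 4.07 and 9.42 CPM, 2.31-fold higher (1.72 to 3.12). Brca2, a recombination mediator, was at 6.33 and 1.44 CPM, 4.41-fold lower (2.61 to 7.95). Palb2 was at 4.42 CPM and a single read, a ratio of 49.2 with an interval from 8.61 to 1965. It was at 4.89 and 7.59 CPM with vehicle.

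Genes at 0 in one library could not enter the comparison of both tables. Of the 2522 genes with 0 reads in the CD74+ periostin library, 1014 had at least 1 CPM in ACE+ periostin and 31 at least 10 CPM. After Dmp1, the highest was Bach2 (chromosome 4, 32238804 to 32586108), a transcription factor of B and T cells, at 64.0 CPM and at least 238-fold lower. Next came Bcl7a, a chromatin-remodelling subunit, at 44.8 CPM and at least 167-fold lower. Both were seen in CD74+ vehicle. With vehicle, Bach2 was at 74.2 CPM in ACE+ and 4.54 CPM in CD74+ cells, and Bcl7a at 46.5 and 2.99 CPM. Not all of the 1014 genes were absent from CD74+ cells: 841 had reads in CD74+ vehicle, 605 of them at least 10 reads, and 1 gene had 405. In the other direction 191 genes had 0 reads in ACE+ periostin and 125 of them reached 1 CPM in CD74+ periostin, none reaching 10 CPM. Highest were Pou3f1, a POU transcription factor, at 7.18 CPM and at least 48.8-fold higher, Dnmt3aos at 5.29 CPM and at least 36.0-fold higher, and Scn2b, a sodium channel subunit, at 5.02 CPM and at least 34.1-fold higher. Dnmt3aos is antisense to Dnmt3a, and without a stated strand setting its reads cannot be told apart from those of its partner.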

How the data were processed

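RNA of 4 sorted and cultured mouse samples was sequenced, 1 library per group; a TruSeq kit was used, per the labels. HISAT2 and the build GRCm38 come from the submitters' processing notes, and no source at hand names the counting tool or its strand setting. The authors deposited a signal per gene and library, which was found to be whole reads over a size factor (100% of values whole within 0.001 read). All 4 libraries share 1 scaling, since the deposited mean is that of all 4. The analysis plan had assumed plain counts, so signal was divided by the mean column total, 15573211, and multiplied by 1000000 (CPM), and genes in both tables past 1 CPM were compared on log2(CPM + 1). For genes missing from 1 table, reads follow from the deposited mean within 0.0001 read. Restoring by gene identifier recovered 19 symbols that had become dates. Exon lengths, GC content and coordinates are from GENCODE M21 (17384 genes matched). A single read was worth 0.0491 CPM in ACE+ periostin and 0.0897 CPM in CD74+ periostin; intervals and floors cover counting error only.

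The comparison, the 38 gene lists and the naming rule were chosen with earlier results of these data known, and 2 more lists and the 4-fold count after these levels were seen. Named were the 12 genes each way with the largest difference at 5 CPM and at 50 CPM, per list up to 2 members each way past 1.5-fold, the 3 highest genes each way at 0 in the other library, and 8 sort, periostin and integrin genes. Alternatives changed the pseudocount, filter, scaling, table membership and the length or GC trend; edgeR 4.0.16 in R 4.3.3 was fitted to the recovered reads of all 4 libraries. Some named genes are not reported here.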

Additional observations from a re-analysis of the deposited data

Results flagged for a closer look

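Igha, Dkk1, Marco, Mylpf and Col10a1 are named genes that differed at least 2-fold in opposite directions between the periostin-treated and the vehicle-treated pair of libraries, and the difference between those contrasts was not tested. Col10a1 had a log2 difference of −3.23 under periostin and 2.67 with vehicle. For Dkk1 it was 2.69 and −1.28, for Igha 2.84 and −1.10, and for Marco 1.33 and −1.90. Mylpf, a myosin light chain of fast muscle, had 1.01 and −1.61, on 1.72 and 4.49 CPM under periostin and 4.96 and 0.957 CPM with vehicle. Over all genes past 2-fold under periostin, 23 of the 950 higher and 6 of the 1424 lower ones stood past 2-fold the other way with vehicle.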

How the results depend on the processing

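Main counts were 950 genes higher and 1424 lower. With a pseudocount of 5 CPM they were 302 and 726 (29.4% of calls higher, against 40.0%), with a minimum of 5 CPM 612 and 1238, and with genes listed in either table they came to 1188 and 2448. At 4-fold, added after the data were seen, they were 94 and 244. Scaling each library to its own total moved the median of all genes from 0.0026 to −0.119 and gave 730 and 1719, with 29.8% higher. A pseudocount of 0.1 CPM gave 1367 and 1749, TMM factors 906 and 1476, removal of the length trend 855 and 1424, removal of the GC trend 944 and 1417, and no filter 950 and 1424. The edgeR counts, 808 and 1259, are of another kind, from all 4 libraries at an adjusted p under 0.05 with no fold cut. They held 336 of the 950 higher and 793 of the 1424 lower genes. The median of T and NK cell genes changed sign, from 0.26 to −1.43, with genes listed in either table, which adds genes at 0 in CD74+ periostin. Of 160 compared named genes, 25 fell below 2-fold with a pseudocount of 5 CPM, 10 without the length trend and 8 with each library scaled to its own total. Of 40 list medians, 37 kept their sign without the length trend (not class II, ribosomal and axon guidance), 37 with genes listed in either table (not complement, T and NK cells and axon guidance) and 38 with a minimum of 5 CPM (not T and NK cells and scavenger receptors). Under the libraries' own totals 34 did; the others, class II, scavenger receptors, NF-kB, replication, homologous recombination and axon guidance, had main medians between 0.04 and 0.09. The edgeR fit pairs the libraries by treatment, as a block. The labels number no replicates, and with 1 library per group none could be left out. Differences of genes at or near 0 in the CD74+ periostin library rest on few reads or none there. Of the 1014 genes at 0 there with at least 1 CPM in ACE+ periostin, 605 had at least 10 reads in CD74+ vehicle. The part of depth in these zeros was not tested.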
